A study of Mus musculus with 5 samples.

Results

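Lgr5, Ascl2, Axin2, Rnf43, Znrf3, Lgr4, Cd44, Ephb2, Ephb3 and Nkd1, genes of the colonic crypt base and of the Wnt response, were followed across 5 bulk RNA-seq libraries of mouse colon spheroids, three-dimensional epithelial cultures. The 10 genes were taken by symbol from the 32793 rows of the count and TPM tables, and all 10 were present. The 2 libraries called NDD here express the dimerization-deficient alleles Notch1DD and Notch2DD, and the 3 called WT are wild type. Both groups are on a mixed background, largely C57Bl6 plus some FVB. Nothing in the labels says whether the libraries came from separate mice or cultures, so every p-value measures only the spread between these libraries. The age of the mice, the culture medium and the time in culture are not given in the sources used here.

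Wnt ligands bind Frizzled and LRP receptors, which stabilises beta-catenin and lets TCF factors switch on target genes at the bottom of the crypt. R-spondins bind Lgr4 and Lgr5 and keep the ubiquitin ligases Rnf43 and Znrf3 from removing Frizzled. Several targets, among them Axin2, Nkd1, Rnf43 and Znrf3, restrain the pathway in turn. Notch signalling acts beside Wnt in the same compartment and maintains progenitors, and an intracellular Notch domain can pair with a second one on DNA sites for its partner RBPJ that face each other.

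Promoter sequences of 3 of the genes with the lowest NDD levels relative to WT show what lies next to their start sites. They come from the RefSeq promoter table (build GRCm38.p6, the mm10 assembly), run 5′ to 3′ on the gene's strand, and hold 250 bases before and 50 bases after the gene start. Capitals mark matches to CTTTG or its longer form CTTTGA (letters of the TCF site), TGGGAA (letters of the RBPJ site) or CAGCTG (an E-box, the kind of site that factors such as Ascl2 bind), on either strand. CTTTG lies within CTTTGA, so these motifs overlap.
Cd44 promoter, chr2:102901616-102901915, minus strand: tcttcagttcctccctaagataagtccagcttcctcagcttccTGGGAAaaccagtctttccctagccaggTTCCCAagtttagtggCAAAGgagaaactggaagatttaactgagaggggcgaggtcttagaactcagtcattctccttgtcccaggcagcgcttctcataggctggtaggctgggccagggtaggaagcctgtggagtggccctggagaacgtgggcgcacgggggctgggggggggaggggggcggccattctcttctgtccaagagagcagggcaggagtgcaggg
Ephb3 promoter, chr16:21204545-21204844, plus strand: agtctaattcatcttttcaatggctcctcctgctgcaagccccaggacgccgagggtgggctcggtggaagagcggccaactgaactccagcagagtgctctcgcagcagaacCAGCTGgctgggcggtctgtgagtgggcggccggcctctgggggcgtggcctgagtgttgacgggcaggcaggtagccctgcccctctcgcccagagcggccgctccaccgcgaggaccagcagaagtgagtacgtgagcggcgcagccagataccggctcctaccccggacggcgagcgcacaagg
Ascl2 promoter, chr7:142969215-142969514, minus strand: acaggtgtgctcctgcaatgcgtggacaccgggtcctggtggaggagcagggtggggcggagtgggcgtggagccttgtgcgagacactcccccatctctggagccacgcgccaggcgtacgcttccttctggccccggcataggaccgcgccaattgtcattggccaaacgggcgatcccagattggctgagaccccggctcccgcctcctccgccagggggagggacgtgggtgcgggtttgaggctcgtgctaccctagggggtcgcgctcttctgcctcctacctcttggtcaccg
The Cd44 window held TGGGAA at base -207 from the gene start and its reverse complement at base -179, with 22 bases between them, and the reverse complement of CTTTG at base -163. The Ephb3 window held CAGCTG at base -137, and the Ascl2 window held none of the 4 motifs. The table matched 8 of the 10 genes with 9 windows, and had no entry for Lgr5 or Znrf3. Of these 9, CTTTG was found in 1, CTTTGA in 0, TGGGAA in 1 and CAGCTG in 2 (Ephb3 and Nkd1). Among all 32851 windows of the table the shares were 53.9%, 16%, 25.6% and 16.3%. TGGGAA followed by TTCCCA, the arrangement in the Cd44 window, was found in 0.874% of all windows. Whether a gap of 22 bases suits paired Notch domains was not tested. These matches are letters in a window and were not tested for binding.

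Lgr5, the R-spondin receptor that marks cycling crypt stem cells, Ascl2, a transcription factor of the same cells, and Cd44, a hyaluronan receptor of crypt cells, had the largest fold differences between the genotypes among the 9 tested genes. As a share of the WT mean, Lgr5 stood at 27.4% and 16.6% in the NDD libraries, Ascl2 at 34.3% and 33.6%, and Cd44 at 43.0% and 28.8%. Ephb3, Axin2, Lgr4, Rnf43, Ephb2 and Znrf3 had group means at 59.7% to 86.8% of WT. In bulk RNA, fewer crypt base cells and less RNA per cell cannot be told apart. Nkd1 was close to the limit of detection. Of the 10 genes, 9 passed the filter on low counts, and all 9 had a lower mean in NDD (50.5% of the 13501 genes tested had a log2 fold change under 0), or 8 of 9 without NDD replicate 2. With edgeR's quasi-likelihood test 0 of the 9 passed an adjusted p of 0.05 (0.0222% of all tested genes passed it with a lower level in NDD). At an unadjusted p under 0.05 there were 5 of 9, all lower in NDD (background 4.68% lower, 11.2% in either direction): Lgr5, Ascl2, Cd44, Ephb3 and Axin2. That count was 3 of 9 without NDD replicate 2 (Lgr5, Ascl2 and Ephb3, background 3.62% lower) and 7 of 9 without NDD replicate 1 (background 17% lower). DESeq2 on the same genes called 3 of 9 at an adjusted p under 0.05, all lower in NDD (background 1.02% lower, 2.64% in either direction): Lgr5, Ascl2 and Cd44. edgeR called 1 of 10 (Lgr5) with no filter on low counts (background 0.0834% lower), 2 of 9 (Lgr5 and Ephb3) without NDD replicate 1 (background 5.66% lower) and 0 of 9 without NDD replicate 2 (background 0.0144% lower). The abundances (CPM, counts scaled for depth with TMM-normalised library sizes) did not overlap between the groups for 7 of 9, all lower in NDD (background 16.2%). In TPM, Lgr4, one of these, did overlap. The genes were chosen with results of these libraries known.

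**Figure D1:**
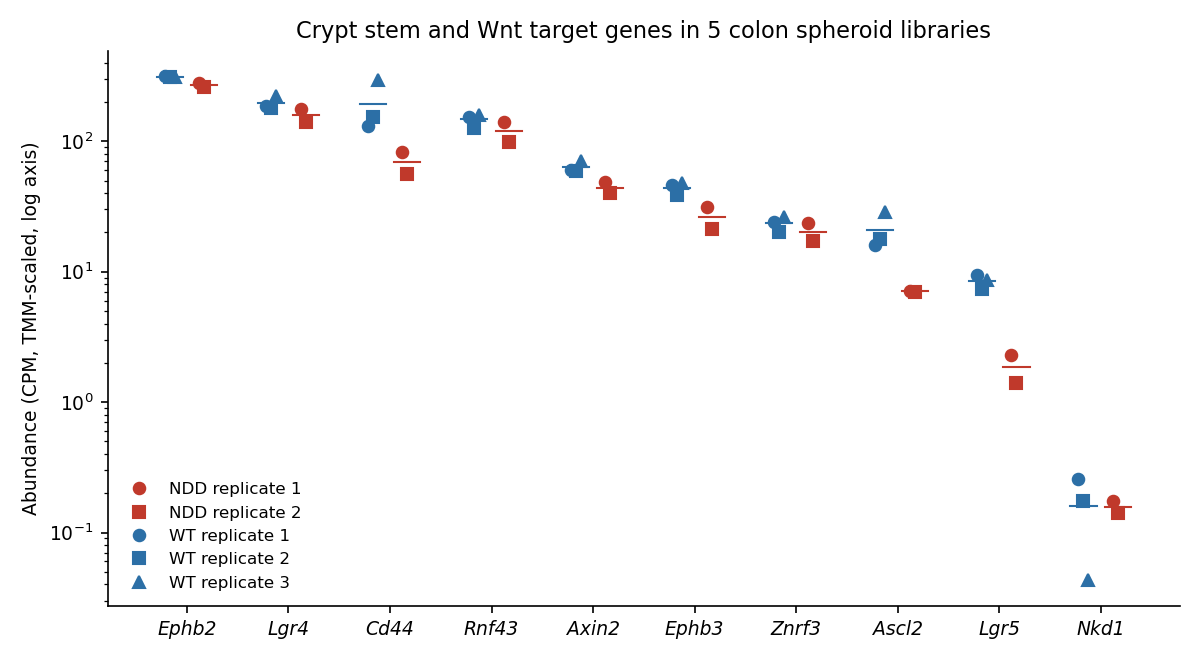
Abundance of the 10 genes in each library, in CPM on a log axis, with 1 point per library (blue, WT; red, NDD) and a line at each group mean. The red points lie below all blue points for 7 genes, and the wide gaps are those of Lgr5, Ascl2 and Cd44.

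The libraries held 19192389 to 23064000 counts each. Epithelial markers (Epcam, Cdh1, keratins, Cdx1, Cdx2 and Vil1) summed to 10088 to 11756 TPM (abundance scaled for transcript length and depth) in NDD and 10344 to 11704 TPM in WT. Fibroblast markers summed to 3.44 to 8.37 TPM in NDD and 1.47 to 2.54 TPM in WT, with 9 of 10 under 1 TPM in every library and Lum, Thy1 and Twist2 at 0 counts. Pdgfrb made up most of that sum. Endothelial markers summed to at most 2.96 TPM in any library, with 5 of 6 under 1 TPM and Kdr and Emcn at 0 counts. Immune markers summed to 63.1 to 77.5 TPM in NDD and 76.4 to 189 TPM in WT, almost all of it Cd14, with 7 of 10 under 1 TPM. By edgeR, the log2 difference of NDD from WT was -0.17 for Notch1 (standard error 0.14, adjusted p 0.584) and -0.43 for Notch2 (standard error 0.26, adjusted p 0.505). RNA levels do not check these alleles, which change the protein. Over all tested genes the NDD libraries correlated with each other at a Spearman rho of 0.966 and the WT pairs at 0.984 to 0.987. NDD replicate 1 correlated with WT replicate 1 at 0.985, so it was NDD replicate 2 that stood apart, and values with and without each NDD library are given below.

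Lgr5 (chr10:115450311-115587780, minus strand, protein coding) had the largest log2 fold change of the 9 tested genes in counts, though not in TPM. Its CPM was 2.32 in NDD replicate 1 and 1.40 in NDD replicate 2, against 9.37, 7.34 and 8.66 in WT replicates 1 to 3. Both NDD libraries lay far below every WT library, and the WT libraries spanned only 1.28-fold. The estimated counts behind these values were 53 and 30 in NDD and 167 to 202 in WT. The exact Poisson intervals (95%, counting error only) reached 3.03 CPM at most in NDD and 6.27 CPM at least in WT, so they did not meet. The log2 fold change was -2.18 (standard error 0.32, adjusted p 0.119 by edgeR), with an unadjusted 95% interval of -2.97 to -1.39. Leaving out NDD replicate 1 gave -2.59 and leaving out NDD replicate 2 gave -1.85. In edgeR's order of p-values Lgr5 ranked at 53 of 13501 genes.

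The scale matters for Lgr5. In TPM it was 0.86 in NDD replicate 1 and 1.23 in NDD replicate 2, against 3.37, 2.57 and 3.17 in WT, so the order of the NDD libraries was the reverse of that in CPM. The WT mean was 4.55-fold the NDD mean in CPM and 2.91-fold in TPM, against 3.00-fold in TPM for Ascl2. On log2(TPM + 1) the difference was -0.98 for Lgr5, -1.43 for Ascl2 and -1.38 for Cd44. The TPM per count of Lgr5 in NDD replicate 2 was 2.57 times the median of the other libraries, while in the remaining libraries it stayed within 0.991 to 1.01 times. A ratio over 2 or under 0.5 in that library was found in 27 of 13465 tested genes (0.201%). The annotation (GENCODE M21) lists 8 transcripts of Lgr5, 3 of them coding, and how reads were divided among them in this library of 30 counts was not tested.

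Ascl2 (chr7:142966829-142969264, minus strand) was at 7.17 and 7.02 CPM in NDD replicates 1 and 2, and at 16.0, 17.9 and 28.8 CPM in WT replicates 1 to 3. The NDD libraries were nearly equal and below all WT libraries, while WT replicate 3 stood above the other WT libraries. The log2 fold change was -1.56 (standard error 0.30, adjusted p 0.207 by edgeR). Leaving out either NDD library gave -1.58 and -1.53, and leaving out WT replicate 3 gave -1.26. DESeq2 gave an adjusted p of 4.41e-04 for Ascl2 and of 4.70e-07 for Lgr5.

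The 3 surface receptors that mark the lower crypt differed in size of effect. Cd44 (chr2:102811141-102901665, minus strand) was at 83.1 and 55.8 CPM in NDD and at 131, 153 and 296 CPM in WT replicates 1 to 3. The groups did not overlap, but the WT libraries themselves spanned 2.25-fold, with WT replicate 3 highest. Its log2 fold change was -1.48 (standard error 0.40, adjusted p 0.362 by edgeR; DESeq2 adjusted p 0.00823), and -1.04 without WT replicate 3. Immune cells also express Cd44. In these libraries the pan-leukocyte gene Ptprc was at no more than 0.03 TPM, and the TPM of Cd14, which epithelial cells can also make, was 59.8 and 73.3 in NDD and 141, 69.7 and 181 in WT. Csf1r, a receptor of macrophages that passed the filter only through its WT counts, had 1 and 8 counts in NDD and 11, 23 and 70 in WT, and Cd68, a lysosomal protein of macrophages, had 37 and 50 counts in NDD and 50, 81 and 87 in WT. Of the 4 tested immune genes, Csf1r left aside, only Cd68 did not overlap between the groups in CPM (background 16.2%). Csf1r and Cd68, like Cd44, were highest in WT replicate 3 (background 26.4%), and so were Cd14 and Itgam. Itgam overlapped between the groups. Of the other listed immune genes, Adgre1 had 1 count in WT replicate 2 and 0 elsewhere. Lyz2 had 1 and 3 counts in WT replicates 1 and 2 and 0 elsewhere. The part of immune cells in the Cd44 values was not tested.

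Ephb2 and Ephb3 are receptors for ephrin-B ligands and position cells along the crypt axis. Ephb3 (chr16:21204755-21223305, plus strand) was at 31.4 and 21.3 CPM in NDD and at 45.9, 38.4 and 48.2 CPM in WT. No NDD library reached the WT range. Its log2 fold change was -0.74 (standard error 0.21, adjusted p 0.385 by edgeR), with -1.06 from the fit without NDD replicate 1 and -0.48 from that without NDD replicate 2. Ephb2 (chr4:136647539-136835988, minus strand), was at 281 and 263 CPM in NDD and at 317, 313 and 309 CPM in WT. The WT libraries spanned 1.02-fold, and both NDD libraries were below them by a small margin. Its log2 fold change was -0.20 (standard error 0.11, adjusted p 0.482 by edgeR), with an unadjusted 95% interval of -0.48 to 0.07.

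Among the feedback genes, Axin2 (chr11:108920349-108950783, plus strand), a scaffold of the beta-catenin destruction complex and a common readout of Wnt activity, was at 48.4 and 39.8 CPM in NDD. In WT replicates 1 to 3 it was at 60.2, 59.6 and 70.7 CPM, and the groups did not overlap. Its log2 fold change was -0.53 (standard error 0.16, adjusted p 0.394 by edgeR), against -2.18 for Lgr5. The fits without NDD replicate 1 and without NDD replicate 2 gave -0.68 and -0.38 for Axin2. Nkd1 (chr8:88521354-88594884, plus strand), which binds Dishevelled and dampens the signal, had 4 and 3 counts in NDD and 5, 4 and 1 in WT. It did not pass the filter, and a difference was not detectable at this depth: the Poisson interval of every library, in CPM, overlapped all others, with upper ends from 0.239 to 0.604.

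The ligase pair Rnf43 (chr11:87662722-87735539, plus strand) and Znrf3 (chr11:5276324-5444847, minus strand) overlapped between the genotypes. Rnf43 was at 140 and 98.4 CPM in NDD and at 155, 127 and 159 CPM in WT. Znrf3 was at 23.4 and 17.1 CPM in NDD and at 23.9, 20.1 and 26.4 CPM in WT. For both, NDD replicate 1 lay inside the WT range and NDD replicate 2 below it. The log2 fold changes were -0.30 (standard error 0.19, adjusted p 0.514 by edgeR) for Rnf43 and -0.21 (standard error 0.21, adjusted p 0.642 by edgeR) for Znrf3. The unadjusted 95% intervals ran from -0.77 to 0.17 and from -0.71 to 0.29. Without NDD replicate 2 the values were -0.06 for Rnf43 and 0.01 for Znrf3, and without NDD replicate 1 they were -0.59 and -0.46. A sense intronic RNA within Rnf43, 1110028F11Rik, had 7 to 29 counts, against 2101 to 3715 for Rnf43.

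Lgr4 (chr2:109917647-110014257, plus strand), the R-spondin receptor found more widely in the crypt, was at 178 and 141 CPM in NDD and at 187, 180 and 224 CPM in WT. NDD replicate 1 was only just below the lowest WT library. In TPM the groups overlapped, with 60.3 in NDD replicate 1 and 58.3 in WT replicate 2. Its log2 fold change was -0.30 (standard error 0.17, adjusted p 0.482 by edgeR), which leaving out NDD replicate 2 moved to -0.13 and leaving out NDD replicate 1 to -0.49.

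**Figure D2:**
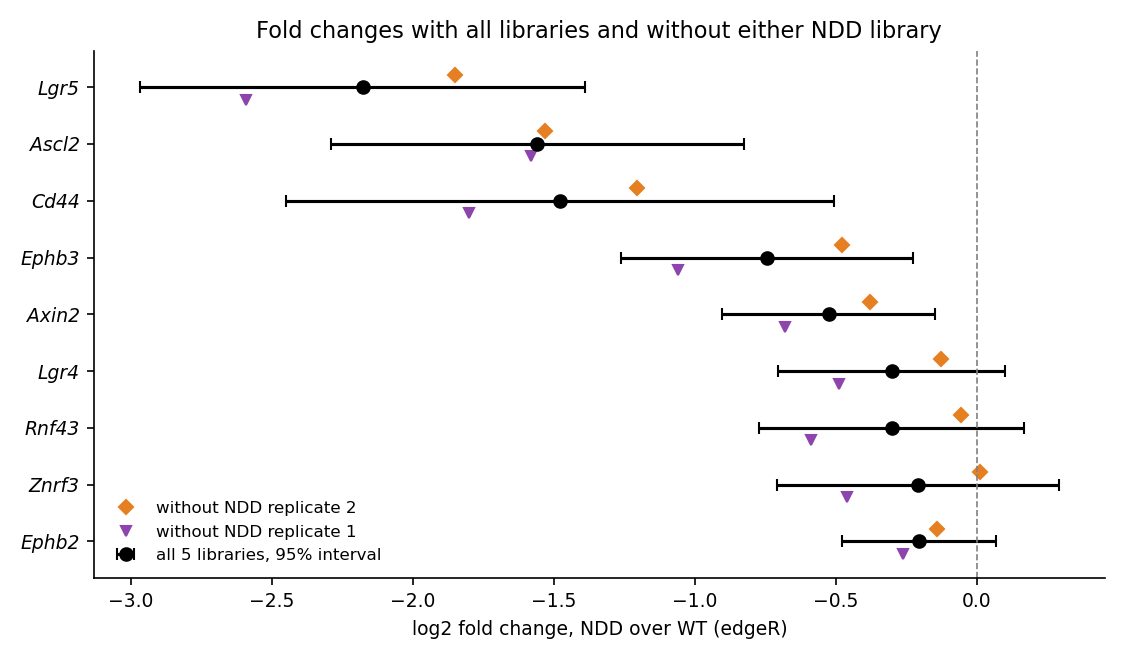
Log2 fold change (NDD over WT, edgeR) of the 9 tested genes, with black points and bars for all 5 libraries and their unadjusted 95% interval, and coloured points for the fits without either NDD library. Lgr5, Ascl2 and Cd44 lie below -1 in all 3 fits, and Znrf3 reaches 0.01 without NDD replicate 2.

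A ratio of 2 genes within a library does not depend on how the libraries are scaled, but it can differ between CPM and TPM. Lgr4 exceeded Lgr5 by 20.0- to 25.8-fold in CPM in the WT libraries and by 76.9- and 100-fold in the NDD libraries. On the log2 scale the Lgr5 to Lgr4 ratio in CPM differed by -1.92 between NDD and WT, with no overlap. Without NDD replicates 1 and 2 in turn it differed by -2.11 and -1.72. The difference in TPM was smaller, at -1.22. In TPM, which allows comparison of the levels of 2 genes, Lgr4 exceeded Lgr5 by 18.4- to 23.8-fold in WT and by 70.1- and 36.0-fold in NDD. The Ephb2 to Ephb3 ratio in CPM was higher in NDD by 0.56, also with no overlap, and by 0.79 without NDD replicate 1 and 0.33 without NDD replicate 2. The Rnf43 to Znrf3 ratio differed by -0.10 in CPM, also with no overlap, and by 0.06 in TPM, with overlap. Its direction thus depends on the unit. The exact two-sided permutation p was 0.2 for each of the 3 CPM ratios, and 0.2 after Benjamini-Hochberg adjustment. This test doubles the smaller tail, so with 2 libraries against 3 it can give no p under 0.2.

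Compared per transcript length, the WT order of levels began with Lgr4 (65.3 ± 9.02 TPM, SD, n = 3), Cd44 (65.2 ± 31.5 TPM) and Rnf43 (62.5 ± 8.60 TPM), whose ranges overlapped. Ephb2 followed at 47.2 ± 0.866 TPM, below Rnf43 in every WT library. Axin2 (26.8 ± 3.90 TPM), Ascl2 (24.0 ± 8.36 TPM) and Ephb3 (18.1 ± 2.48 TPM) came next, each overlapping its neighbour. Znrf3 (7.02 ± 0.927 TPM), Lgr5 (3.04 ± 0.416 TPM) and Nkd1 (0.0667 ± 0.0451 TPM) were separate from their neighbours. In NDD, Cd44 moved from the second to the fourth place (23.3 ± 7.32 TPM, SD, n = 2), and Ascl2 (7.995 ± 0.544 TPM) came after Ephb3 (10.7 ± 3.48 TPM), with which its range overlapped. Lgr5 stayed in ninth place at 1.045 ± 0.262 TPM.

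Of the 9 tested genes, 9 had less CPM in NDD replicate 2 than in NDD replicate 1 (background 50%), and 7 were highest of all libraries in WT replicate 3 (background 26.4%). NDD replicate 2 lay below all WT libraries for 9 of 9 (background 38.6%), and NDD replicate 1 for 7 of 9 (background 27.4%). By the root mean square distance of centred log2 CPM over the 5 libraries, the closest pair was Rnf43 and Znrf3 (0.0630), and Ascl2 and Cd44 were closest to each other (0.208). Lgr5 was farthest from Ephb2 (0.973) and nearest to Ascl2 (0.484). Among the 10688 other tested genes with a mean log2 CPM of at least 2, the 5 nearest to Lgr5 were Eif3j1 (0.232), Fbln1 (0.272), Tdrd1 (0.29), Fxyd3 (0.313) and Dynlt1f (0.321). Eif3j1 and Dynlt1f have near-identical copies elsewhere in the genome, so their counts are uncertain. Fbln1 was at 2.27 and 2.06 CPM in NDD and at 9.63, 11.3 and 12.6 CPM in WT. Of the other members, Ascl2 ranked at 31 and Cd44 at 47 by this distance.

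The other genes of the Wnt pathway were described from a list by role. Of 65 listed ligands, receptors, transducers and inhibitors, 42 passed the filter and 0 had an edgeR adjusted p under 0.05 in either direction (background 0.0889%). With the ligand Wnt10a left aside, 0 were lower and 0 higher at an unadjusted p under 0.05 (background 4.68% and 6.49%). Wnt10a passed the filter only through its WT counts. So did the receptor gene Fzd9, with 9 and 6 counts in NDD and 14, 6 and 14 in WT. The number of Wnt pathway genes called was 1 without NDD replicate 1 (background 8.62%) and 0 in each fit without another library. In NDD 21 of the tested pathway genes were lower, Wnt10a and Fzd9 among them, and 21 higher. Without NDD replicate 2 the split was 28 lower and 14 higher. The median log2 fold change was -0.0023, beside -0.0047 for all tested genes and -0.53 for the 9 crypt genes. With Wnt10a set at its counting limit the pathway median was also -0.0023. Without NDD replicate 1 the medians were 0.01 for the pathway and -0.68 for the crypt genes, and without NDD replicate 2 they were -0.07 and -0.38.

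By role, the ligand Wnt7b, the most abundant of the 6 tested Wnt genes by TPM, was at 1.53 and 11.6 CPM in NDD and at 2.90, 6.99 and 24.7 CPM in WT, with overlapping groups (log2 fold change -0.82, standard error 1.09, adjusted p 0.726 by edgeR). Wnt10a, another ligand, had 0 counts in both NDD libraries and 4, 12 and 79 counts in WT. Against the limit of 3 counts per NDD library it was at least 10.1-fold higher in WT, or at least 2.71-fold without WT replicate 3. It passed the filter on low counts only through the WT libraries, so its unadjusted p is not counted. The 4 R-spondins had 0 counts in all 5 libraries, and a count of 0 leaves room for at most 0.156 CPM in any library. Wls, which carries Wnt proteins to the cell surface, was at 191 and 227 CPM in NDD and at 162, 169 and 182 CPM in WT, with NDD higher and no overlap (log2 fold change 0.29, standard error 0.13, adjusted p 0.463 by edgeR).

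Of the 12 receptors, 9 were higher and 3 lower in NDD, with Fzd9 among the lower. The most abundant by TPM, the coreceptor Lrp5, had a log2 fold change of -0.29 (standard error 0.16, adjusted p 0.485 by edgeR). Dvl1 of the Dishevelled transducers was at -0.05 (standard error 0.11, adjusted p 0.833) and the kinase gene Csnk1a1 of the destruction complex at 0.02 (standard error 0.15, adjusted p 0.956). Ctnnb1, which encodes beta-catenin, was at 887 and 707 CPM in NDD and at 810, 880 and 1005 CPM in WT, with overlapping groups (log2 fold change -0.17, standard error 0.16, adjusted p 0.63). Kremen1, a Dickkopf receptor, was at 0.06 (standard error 0.13, adjusted p 0.836), and 10 of the 13 secreted or membrane inhibitors did not pass the filter. The p-values of this paragraph are edgeR's.

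**Figure D3:**
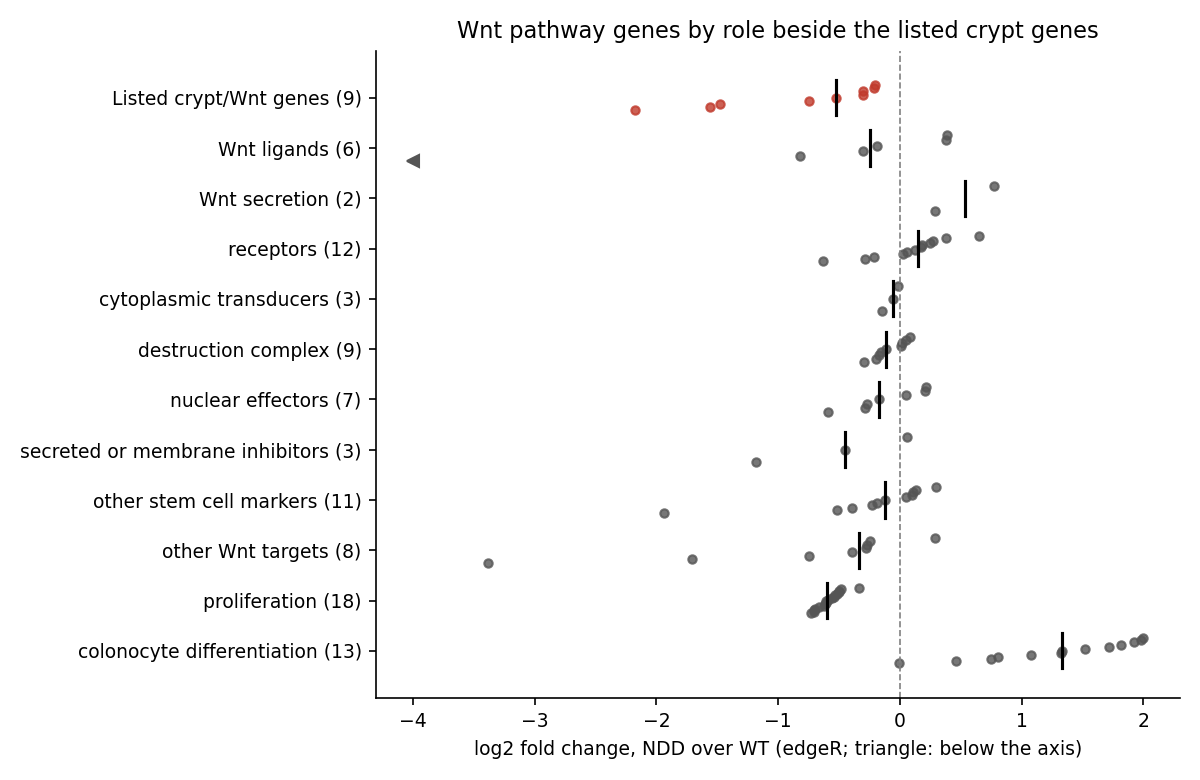
Log2 fold change (NDD over WT, edgeR) of each tested gene, by role, with the number of genes tested in parentheses, 1 point per gene and a black bar at the median. The red points, the 9 tested crypt and Wnt target genes, all lie below 0 (Znrf3 reaches 0.01 without NDD replicate 2), the 42 pathway genes lie on both sides, and the triangle is Wnt10a, which had 0 counts in NDD.

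A further 24 stem cell markers and Wnt targets were listed beside the 10 genes, and 19 passed the filter. By edgeR 0 of the 19 had an adjusted p under 0.05, and 13 were lower and 6 higher in NDD. Leaving aside Mmp7 and Igfbp4, only Ccnd1 was lower at an unadjusted p under 0.05 (background 4.68%). Mmp7 and Igfbp4 passed the filter only through their WT counts, so their unadjusted p-values are not counted. Both are still among the 13 lower genes and in the median that follows, and passing only through WT counts favours lower levels in NDD. The list's median log2 fold change was -0.24, which became -0.04 without NDD replicate 2 (0 called) and -0.55 without NDD replicate 1. In that last fit 2 of the 19 were called, beside 8.62% of all genes. Mmp7, a matrix protease and Wnt target, had 7 and 19 counts in NDD and 67, 49 and 304 in WT. Igfbp4, a binding protein of insulin-like growth factors, was at 0.131 and 1.12 CPM in NDD and at 1.92, 2.59 and 2.70 CPM in WT. Ccnd1, which encodes cyclin D1, was at 493 and 359 CPM in NDD and at 599, 564 and 981 CPM in WT, without overlap (log2 fold change -0.75, adjusted p 0.437 by edgeR). Slc12a2, a cotransporter of lower crypt cells, was at 809 and 579 CPM in NDD and at 615, 489 and 591 CPM in WT, with overlapping groups. Olfm4 had 0 counts in all 5 libraries.

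The crypt genes were set beside 2 further lists, 18 cell cycle genes and 13 genes of surface colonocytes, because both describe where cells stand between crypt base and surface. The cell cycle list had a mean log2 difference from the WT mean of -0.08 in NDD replicate 1 and -1.38 in NDD replicate 2, with WT libraries from -0.09 to 0.09. The mean of NDD replicate 1 thus lay inside the WT range. In that library 6 of the 18 genes (Pcna, Bub1, Aurka, Aurkb, Plk1 and Birc5) were below every WT library, near the 27.4% of all tested genes, and in NDD replicate 2 all 18 were (background 38.6%). In NDD replicate 1 Lgr5 differed from the WT mean by -1.81, Ascl2 by -1.48, Cd44 by -1.12, Ephb3 by -0.48 and Axin2 by -0.39, all below the WT libraries. Ephb2 at -0.16, Lgr4 at -0.14, Rnf43 at -0.06 and Znrf3 at 0.0075 lay closer to the cell cycle mean. Of these, Ephb2 and, only just, Lgr4 were also below the WT libraries, and Rnf43 and Znrf3 were inside the WT range. In NDD replicate 2 the first 5 genes were at -2.48, -1.51, -1.70, -1.04 and -0.67.

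The colonocyte list had mean differences of 1.35 and 1.67 in NDD. In WT replicates 1 to 3 they were 0.87, 0.32 and -1.19. WT replicate 3, where Ascl2, Cd44 and Axin2 were highest, was thus lowest for colonocyte genes. WT replicate 1, the WT library nearest to NDD in colonocyte genes, had 9.37 CPM of Lgr5, the highest value of the 5 libraries, while Ascl2 (16.0 CPM) and Cd44 (131 CPM) were at their lowest WT values there. Of the 13 colonocyte genes, 12 had a higher mean in NDD and 1 (Phgr1) had an edgeR adjusted p under 0.05 (background 0.0667% higher in NDD). At an unadjusted p under 0.05, 7 of the 13 were higher (background 6.49%), and 11 of the 13 were higher with no overlap between the groups (background 15.8%). Phgr1, an epithelial gene of the upper crypt, was at 278 and 323 CPM in NDD and at 121, 124 and 116 CPM in WT (log2 fold change 1.32, standard error 0.12, adjusted p 0.0373 by edgeR), and none of the 13 was called when any 1 WT library was left out. All 18 cell cycle genes had a lower mean in NDD (background 50.5%) and 0 were called lower by edgeR (background 0.0222%), with 1 lower at an unadjusted p under 0.05 (background 4.68%). Without NDD replicate 1 all 18 were called lower, beside the 5.66% of all genes given above. Without NDD replicate 2, 15 of the 18 were lower, with a median log2 fold change of -0.07. The part of cell cycle or colonocyte levels in the crypt gene values was not tested.

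**Figure D4:**
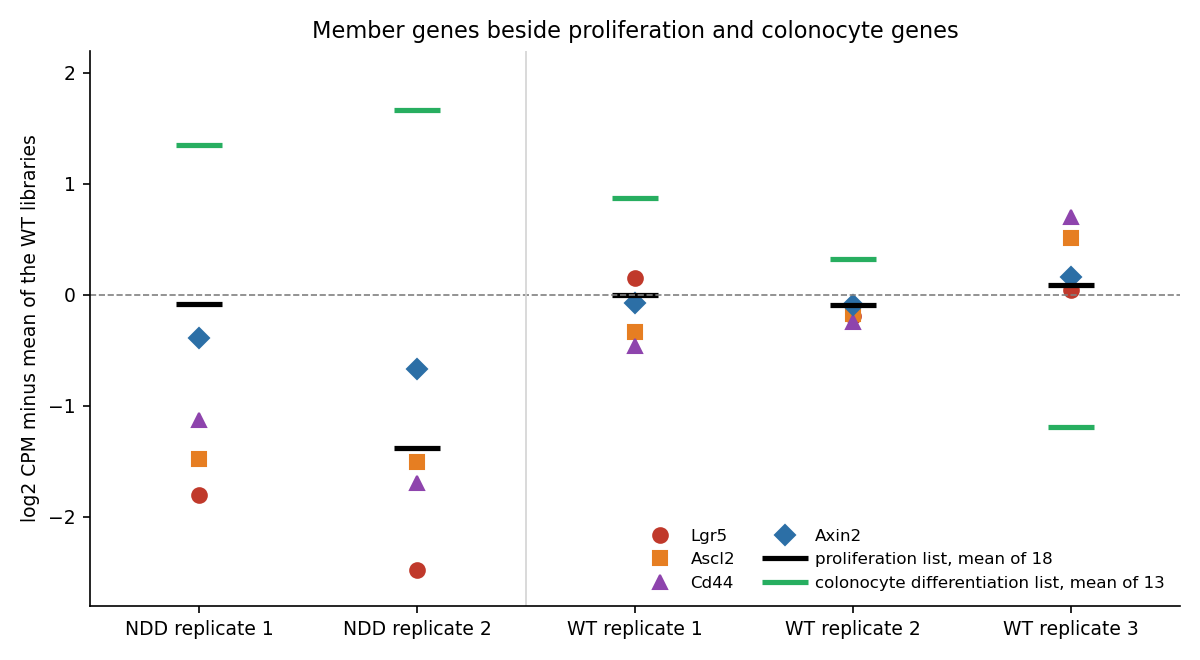
Difference of log2 CPM from the mean of the WT libraries, by library, for Lgr5, Ascl2, Cd44 and Axin2 (points) and as the mean of the 18 cell cycle and 13 colonocyte genes (bars). In NDD replicate 1 the cell cycle bar is at -0.08 while Lgr5 is at -1.81, and in NDD replicate 2 both are low.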

How the data were processed

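RNA was extracted on columns and turned into stranded mRNA libraries, per the labels' protocols. Bowtie2, RSEM and mm10 are named in the submitters' processing notes, with no versions. The authors deposited estimated counts per gene, rounded to whole numbers and not normalized, and TPM, which the authors scaled for transcript length and library. The gene annotation is not given in the sources used here. All 5 columns of each table matched a sample title, and the genotype label gave the group.

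Counts of all 5 libraries were tested with edgeR 4.0.16 (R 4.3.3; TMM, filterByExpr, robust quasi-likelihood, prior count 0.125), with Benjamini-Hochberg adjustment over 13501 genes at 0.05. Standard errors are the log2 fold change over the square root of F. Profiles and list levels used log2(CPM + 0.125). Ratios were tested by exact permutation (scipy 1.17.1). Gene positions are from GENCODE M21 and promoters from RefSeq (GRCm38.p6). The code was tested on simulated counts. Depth limits precision: intervals and the limit of 3 counts for a count of 0 cover counting error only.

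The members, gene lists and tests were chosen with earlier results of these data known. All 10 members are named, as are Notch1, Notch2, the most abundant gene by TPM and the lowest unadjusted p under 0.05 in each role of the Wnt and crypt lists, and the 5 genes nearest to Lgr5. The motifs, the immune, fibroblast, cell cycle and colonocyte genes with values of their own, Olfm4, Fzd9 and 1110028F11Rik were named after values were seen. Alternatives were RLE factors, DESeq2 1.42.0, limma-voom (limma 3.58.1), 2 other count filters, limma on log2(TPM + 1) and log2(TPM + 0.1) with at least 1 TPM in 2 libraries, the replicate number as a block, and leaving out each library. Where 1 NDD library remained, it was assumed to vary like the WT libraries.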

Additional observations from a re-analysis of the deposited data

How the results depend on the processing

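All 9 tested crypt genes had a log2 fold change under 0 in every alternative, except that Znrf3 was at 0.012 without NDD replicate 2 (range -0.46 to 0.012 with 1 library left out). Their median, -0.53 with all libraries, ranged from -0.68 to -0.38 when 1 library was left out. Calls among the 9 depended on the setting: Lgr5 passed without a filter (adjusted p 0.0444), with DESeq2 and without NDD replicate 1 (0.0190), Ephb3 passed without NDD replicate 1 (0.0292), and Ascl2 and Cd44 passed with DESeq2. The fit without NDD replicate 1 rests on 1 NDD library. The adjusted p of Lgr5 otherwise lay between 0.0945 (replicate block) and 0.40 (without WT replicate 3). On log2(TPM + 1) its log2 fold change was -0.98, a scale that understates low genes, and -1.46 on log2(TPM + 0.1). Over all genes 12 were called, against 357 with DESeq2, 58 without a filter, 4 with at least 10 counts in every library, 24 with limma-voom, 28 on log2(TPM + 1), 32 on log2(TPM + 0.1) and 33 with the replicate block. Leaving out 1 library gave 0 (without WT replicate 1, 1211 at an unadjusted p under 0.05) to 1207 (without NDD replicate 1). The cause of these differences was not tested. The difference of the Rnf43 to Znrf3 ratio turned from -0.10 to 0.062 in TPM (exact permutation p 0.8).

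Replicate numbers 1 and 2 occur in both groups, but no label says that they mark a shared litter, batch or day. The correlation of same-numbered libraries, as deviations from their group means, was 0.0375 (number 1) and 0.238 (number 2), and no pairing was assumed. In the fit with the replicate block 0 of the 9 genes were called, and their median log2 fold change was -0.45. Within shared numbers the Lgr5 to Lgr4 ratio in CPM differed by -1.99 on the log2 scale.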
